A study of Mus musculus with 2 samples.

Results

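The miR-30 family was examined in microRNA-seq libraries of embryonic mouse hindbrain (strain B6NCrl, embryonic day 12.5). Its members are the 6 hairpin genes with the GENCODE M21 symbols Mir30e, Mir30c-1, Mir30a, Mir30c-2, Mir30d and Mir30b, out of 1973 miRNA genes in the count tables, and all 6 were found. The series has 1 group of 2 libraries, replicate 1 from pooled hindbrains of 120 embryos and replicate 2 from those of 88 embryos, both of mixed sex and without any treatment or mutation in the labels. No contrast between conditions exists, so levels are described and set against the spread between the libraries. Levels are CPM, the read count of a hairpin on its own strand scaled to a library total of 1000000 such counts, and the 5p and 3p arms are counted together. Positions are in mm10. Intervals are exact Clopper-Pearson 95% intervals and cover counting error only.

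MicroRNAs (miRNAs) are cut from hairpin precursors, and the bases 2 to 8 of the mature strand, the seed, pair with target messenger RNAs and lower their output. The miR-30 miRNAs carry a common seed on the 5p arm and are encoded as pairs of hairpins at separate loci. They are widely expressed in mouse tissues and are known for repressing Snai1, a transcription factor of epithelial-mesenchymal transition, and, in the brain, Bdnf, a neurotrophin. The hairpins Mir30e and Mir30c-1 lie in introns of Nfyc, which encodes a subunit of the CCAAT-binding factor NF-Y.

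The mature sequences show which products the family shares and where the copies differ. RefSeq entries (GRCm38.p6) were matched for 4 of the 6 members, Mir30e, Mir30c-1, Mir30a and Mir30c-2. Mir30d and Mir30b were not matched. The 5p arms are printed 5′ to 3′ with the seed in capitals, together with that of Mir384, a gene outside the family with the same seed.

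miR-30e-5p: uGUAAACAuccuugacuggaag

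miR-30a-5p: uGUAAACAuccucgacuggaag

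miR-30c-5p, identical from Mir30c-1 and Mir30c-2: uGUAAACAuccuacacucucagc

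miR-384-5p: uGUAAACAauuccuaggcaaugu

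Among 1738 mature entries of the table, 5 carried this seed, and they came from these 4 members and Mir384. The matched miR-30 5p arms are identical over their first 12 bases, whereas miR-384-5p matches them over the first 8. Counted from the 5′ end, miR-30a-5p and miR-30e-5p differ by 1 substitution, C13U, with the base of miR-30a first. The 3p arms fall into 2 seed groups, printed in the same way.

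miR-30e-3p: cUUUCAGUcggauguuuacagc

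miR-30a-3p: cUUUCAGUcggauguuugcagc

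miR-30c-1-3p: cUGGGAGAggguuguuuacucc

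miR-30c-2-3p: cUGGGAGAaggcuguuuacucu

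The 3p arms of miR-30a and miR-30e differ by G18A, with the base of miR-30a first. The 3p arms of miR-30c-1 and miR-30c-2 differ at 3 positions, G9A, U12C and C22U, with the base of miR-30c-1 first. The whole hairpins of the miR-30c copies are shown to mark where the copies are identical, with the longest run of bases that is the same in both in capitals.

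Mir30c-1 (chr4:120769534-120769622, minus strand): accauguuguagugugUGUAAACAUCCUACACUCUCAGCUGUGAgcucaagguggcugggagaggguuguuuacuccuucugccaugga

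Mir30c-2 (chr1:23291701-23291784, plus strand): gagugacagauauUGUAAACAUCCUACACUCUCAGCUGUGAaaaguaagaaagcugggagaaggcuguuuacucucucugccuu

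This run of 28 bases contains the whole 23-base miR-30c-5p. Of the windows of 23 bases, 6 of 67 in Mir30c-1 and 6 of 62 in Mir30c-2 occur in the other copy. Mir30e and Mir30a share at most 18 bases in a row. Reads that matched several positions were tallied apart from the genes, and they made up 32.7% of the reads of replicate 1 and 33.4% of those of replicate 2. The tally does not name these reads, so how many were miR-30c-5p was not measured.

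The family held 4.42% of the assigned counts in replicate 1 (122083 of 2764276, interval 4.39% to 4.44%) and 4.40% in replicate 2 (173755 of 3946444, interval 4.38% to 4.42%). The libraries thus lay within each other's counting intervals. The mean share was 4.41% ± 0.00964 (SD, n = 2). All 6 members had at least 10 counts in both libraries, as had 371 genes in all. No count was made on the strand opposite to any member, including Mir30e, where M21 also annotates Mir30f on the opposite strand. With no count, levels of up to 1.09 CPM (replicate 1) and 0.760 CPM (replicate 2) remain possible, the worth of 3 counts.

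Tissue markers were checked by their miRNAs. The hindbrain and neural tube list held 4.27% of the counts in replicate 1 and 4.08% in replicate 2, with 4 of its 7 matched genes detected and none at 0. Nearly all of these counts came from Mir10a (72830 in replicate 1, 102134 in replicate 2) and Mir10b (44222 and 57345). Mir9-3 had 1014 and 1570 counts and Mir124a-2 had 29 and 37, so the list rests on Mir10a and Mir10b. Both miR-9 and miR-124 have more than 1 gene copy in the list, and reads that matched several positions were tallied apart. How many of these reads came from miR-9 or miR-124 was not measured, so the counts do not show that either was scarce. Lists of other cell types held 2.60% and 2.34% (endothelium, 1 of 1 gene detected), 0.966% and 0.647% (epithelium, 7 of 7), 0.0800% and 0.0775% (blood, 5 of 6, Mir142b at 0) and 0.0177% and 0.0647% (muscle, 5 of 6). In bulk tissue, fewer cells of a type and less RNA per cell cannot be told apart.

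Each locus was led by 1 hairpin, and the 3 leading hairpins Mir30e, Mir30a and Mir30d gave 4.40% of all assigned counts in replicate 1 and 4.38% in replicate 2. Mir30e, the upstream hairpin in the Nfyc intron, had 70452 counts or 25487 CPM in replicate 1 and 98086 counts or 24854 CPM in replicate 2. It ranked 9 and 8 among the detected genes. Mir30a had 30951 counts or 11197 CPM in replicate 1 and 45309 counts or 11481 CPM in replicate 2, at ranks 22 and 19. Mir30d had 20116 counts or 7277 CPM in replicate 1 and 29382 counts or 7445 CPM in replicate 2, at ranks 34 and 31. For these 3 genes the libraries lay close together, and no gene's range reached into that of the next.

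The other 3 hairpins were low. Mir30b had 272 counts or 98.4 CPM (interval 87.1 to 111) in replicate 1 and 616 counts or 156 CPM (144 to 169) in replicate 2. Mir30c-1 had 195 counts or 70.5 CPM (61.0 to 81.2) in replicate 1 and 251 counts or 63.6 CPM (56.0 to 72.0) in replicate 2. Mir30c-2 had 97 counts or 35.1 CPM (28.5 to 42.8) in replicate 1 and 111 counts or 28.1 CPM (23.1 to 33.9) in replicate 2. For both miR-30c genes the intervals of the libraries overlapped, while those of Mir30b did not. Together these 3 hairpins held 0.0204% of the assigned counts in replicate 1 and 0.0248% in replicate 2.

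**Figure D1:**
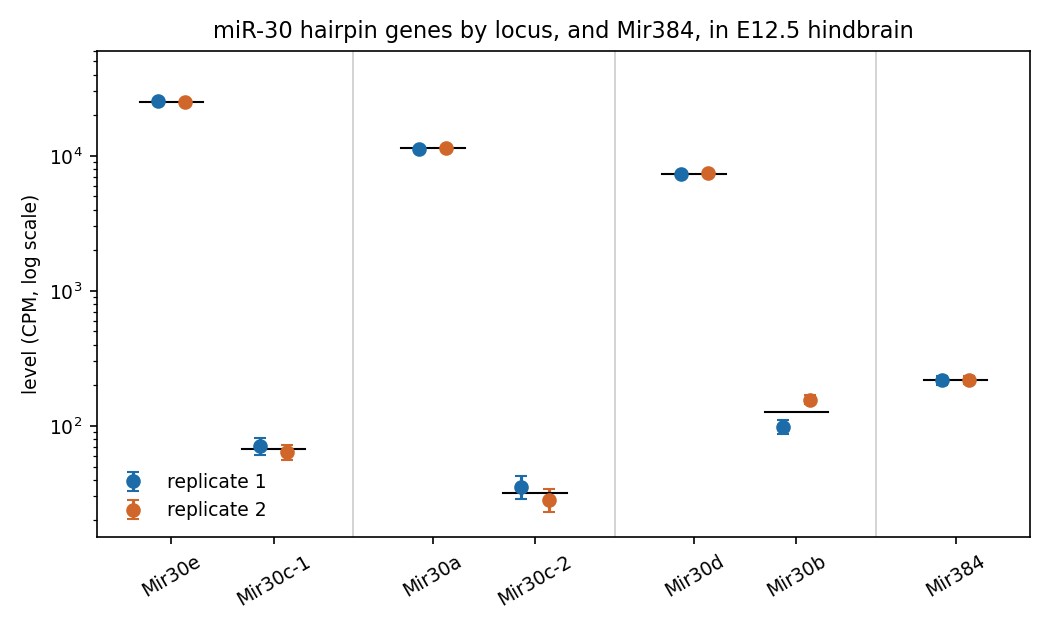
Level of each miR-30 hairpin gene, grouped by locus, and of Mir384, in CPM on a log scale; points are the libraries, bars their exact 95% counting intervals and black lines the means. Mir30e, Mir30a and Mir30d lie at or above 7277 CPM, and Mir30b, Mir30c-1 and Mir30c-2 at or below 156 CPM.

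The order of mean levels was Mir30e (25170 ± 447 CPM), Mir30a (11339 ± 201), Mir30d (7361 ± 119), Mir30b (127 ± 40.8), Mir30c-1 (67.1 ± 4.91) and Mir30c-2 (31.6 ± 4.92; SD, n = 2 throughout). In this order no gene's range over the libraries reached that of its neighbour. The level of Mir30e was 2.28 times (replicate 1) and 2.16 times (replicate 2) that of Mir30a, and Mir30a exceeded Mir30d by 1.54-fold in both. The step between Mir30b and Mir30c-1 varied between the libraries, at 1.39-fold in replicate 1 (interval 1.16 to 1.69) against 2.45-fold in replicate 2 (2.12 to 2.85). The hairpins are between 71 bases (Mir30a) and 96 bases (Mir30b) long. Per base of hairpin the order was the same, with mean levels of 274 CPM for Mir30e, 160 for Mir30a, 89.8 for Mir30d, 1.33 for Mir30b, 0.754 for Mir30c-1 and 0.376 for Mir30c-2. The matched mature arms are 22 or 23 bases long whatever the hairpin length, so this scaling is no check of the order. With 2 libraries an exact two-sided sign-flip test gives a p of at least 0.5, so levels of different genes were not tested against each other.

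Mir384, which lies on chromosome X (chrX:105344282-105344369) outside the family's loci, was between these groups. It had 602 counts or 218 CPM in replicate 1 and 867 counts or 220 CPM in replicate 2, a mean of 219 ± 1.35 CPM. Its level was 2.21 times (replicate 1) and 1.41 times (replicate 2) that of Mir30b, and Mir30d exceeded it by 33.4-fold and 33.9-fold. By counts at single positions, Mir384 thus had more reads than each of the 3 low miR-30 hairpins, and fewer than the 3 leading ones.

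The Nfyc locus gave most of the family's counts. Mir30e and Mir30c-1 together had 25557 CPM in replicate 1 and 24918 CPM in replicate 2, which was 57.9% and 56.6% of the family. Mir30e (ENSMUSG00000065409.1, chr4:120772606-120772697) and Mir30c-1 (ENSMUSG00000065490.1) lie on the minus strand of chromosome 4 (chr4:120769534-120772697), separated by 2983 bases, with Mir30e first in the direction of transcription. Both hairpins are intronic in the annotated Nfyc transcripts.

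The locus of Mir30a and Mir30c-2 followed, with 11232 CPM in replicate 1 and 11509 CPM in replicate 2, or 25.4% and 26.1% of the family. It lies on the plus strand of chromosome 1 (chr1:23272269-23291784), where 19361 bases separate Mir30a (ENSMUSG00000065405.2, chr1:23272269-23272339) from Mir30c-2 (ENSMUSG00000065567.1) and Mir30a comes first. Mir30c-2 falls in an exon of the noncoding gene Gm27028, and no other M21 gene overlaps Mir30a on its strand.

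The locus of Mir30d and Mir30b had 7376 CPM in replicate 1 and 7601 CPM in replicate 2, or 16.7% and 17.3% of the family. It lies on the minus strand of chromosome 15 (chr15:68337415-68341289), with 3697 bases between Mir30d (ENSMUSG00000065437.1, chr15:68341208-68341289) and Mir30b (ENSMUSG00000065476.2, chr15:68337415-68337510), and Mir30d first. Mir30d falls in an exon of the noncoding gene Gm20732, and Mir30b overlaps an end of the noncoding gene Gm26621.

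The order of the 3 loci was the same in both libraries. The Nfyc locus had 2.28 times (replicate 1) and 2.17 times (replicate 2) the level of the locus of Mir30a and Mir30c-2, and exceeded that of Mir30d and Mir30b by 3.47-fold and 3.28-fold. The locus of Mir30a and Mir30c-2 exceeded that of Mir30d and Mir30b by 1.52-fold and 1.51-fold. These differences were larger than the spread between the libraries, which was at most 0.132 (SD of the fold, n = 2).

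**Figure D2:**
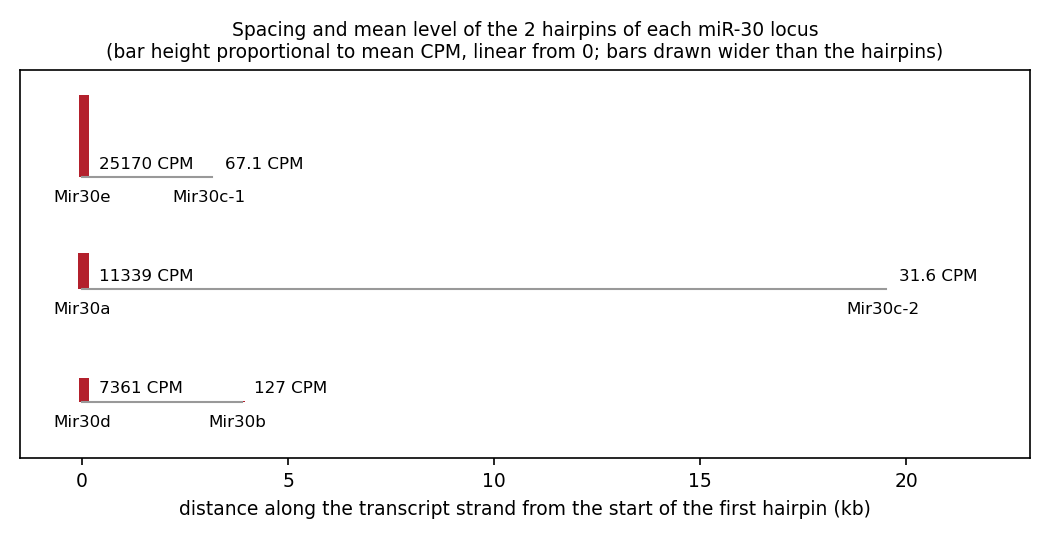
Position of the hairpins of each miR-30 locus, as distance in kb from the first hairpin along the transcribed strand, with bars proportional to the mean CPM. In each locus the first hairpin has the high level (25170, 11339 and 7361 CPM) and the second has 67.1, 31.6 and 127 CPM, with bars too short to see.

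Within each locus the hairpin that lies first on the transcribed strand had far more counts than the second. Whether both are cut from a common transcript was not measured. Mir30e exceeded Mir30c-1 by 361-fold in replicate 1 (interval 314 to 418) and 391-fold in replicate 2 (345 to 444). Mir30a exceeded Mir30c-2 by 319-fold (261 to 394) and 408-fold (339 to 496). The intervals of the libraries overlapped in both of these loci, and the mean ratios were 376 ± 20.9 and 364 ± 63.0 (SD, n = 2).

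Mir30d exceeded Mir30b by less, 74.0-fold in replicate 1 (65.6 to 83.7) and 47.7-fold in replicate 2 (44.0 to 51.7), a mean ratio of 60.8 ± 18.6. Its intervals did not overlap between the libraries, and its ratio was below those of the other loci in both. Of the 6 members, Mir30c-1 and Mir30c-2 are the ones with a stretch of 20 bases that recurs in another annotated hairpin, so that reads of their common 5p arm match both positions. The part of this in the low miR-30c counts was not tested. Mir30b has no such run.

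The same ratio was taken at all loci with exactly 2 annotated hairpins on a strand, linked by gaps of at most 30 kb and each with at least 10 counts in both libraries. There were 27 such loci, with a median ratio of 12.3-fold of the higher over the lower hairpin, computed from mean CPM. The miR-30 loci had a median of 359-fold, against 8.18-fold over the 24 other loci. Mir30e with Mir30c-1 ranked 3, Mir30a with Mir30c-2 ranked 4 and Mir30d with Mir30b ranked 9 of 27. Ranks 1 and 2 were Mir99a with Mirlet7c-1 (777-fold in replicate 1 and 1178-fold in replicate 2) and Mir100 with Mirlet7a-2 (382-fold and 577-fold), named after their values were seen.

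All 4 loci with over 100-fold in both libraries had a lower hairpin that shares a run of 20 bases with another hairpin. A further 12 loci had such a lower hairpin and were not over 100-fold in both. Among the 24 loci outside the family, the median was 6.61-fold over 12 where the lower hairpin alone shares a run and 8.18-fold over 10 where neither does. Of the 11 loci without sharing, which include Mir30d with Mir30b, that pair ranked 2. The 100-fold mark was chosen after the values were seen, and these are descriptions of a ranking, with no test. The run may lie anywhere in a hairpin, and its part in the ratios was not tested.

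**Figure D3:**
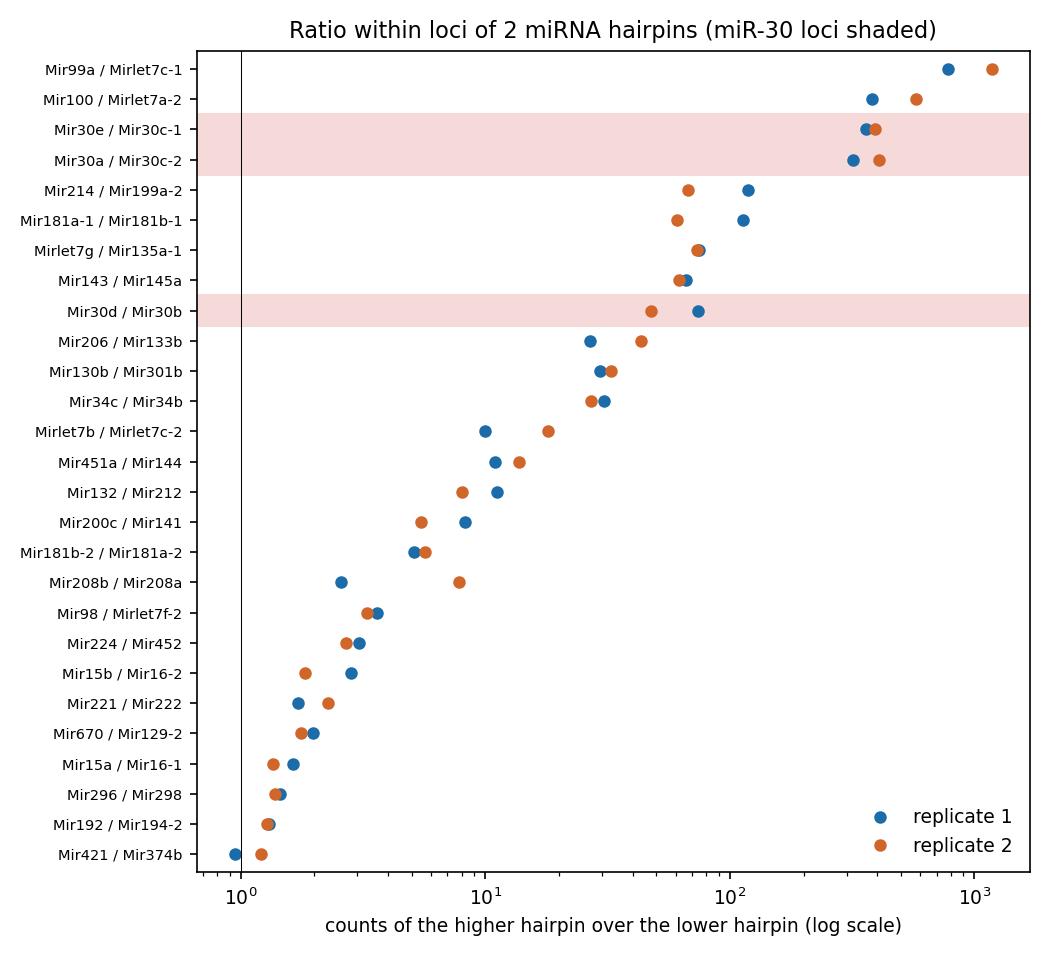
Ratio of the higher to the lower hairpin, by counts on a log scale, at the 27 loci of 2 hairpins, with a point for each library and the miR-30 loci shaded. The miR-30 points run from 47.7-fold to 408-fold, and the median over all loci is 12.3-fold.

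Paralogous families and clusters with a like arrangement were set beside miR-30 at the level of shares. The miR-23/27/24 genes are a set of clusters rather than a single family. The miR-30 family held 4.41% ± 0.00964 of the counts, against 2.68% ± 0.110 for 6 miR-181 genes, 1.78% ± 0.277 for 5 matched genes of the miR-23/27/24 clusters and 0.0181% ± 1.71e-04 for 4 miR-29 genes (SD, n = 2). The share of miR-30 did not overlap with any of these over the libraries. In miR-181, 4 genes share a run of bases and reached at most 3362 CPM (replicate 1) and 4029 CPM (replicate 2), and the 2 that share none had at least 8714 and 8457 CPM. In miR-30, the 2 genes that share a run had at most 70.5 and 63.6 CPM, and the 4 that share none had at least 98.4 and 156 CPM. In miR-29 the order was not the same, since the highest of the 3 genes that share a run had 98.4 CPM (replicate 1) and 105 CPM (replicate 2), against 81.8 and 72.2 CPM for Mir29a, which shares none. All 5 miR-23/27/24 genes share a run, and the highest of them had 11586 and 9544 CPM. How many reads of these families and clusters matched several positions was not measured.

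Between the libraries the leading miR-30 hairpins were among the most even genes. The log2 ratio of replicate 1 over replicate 2 was 0.04 for Mir30e, -0.04 for Mir30a and -0.03 for Mir30d. Of the 393 genes tested, those averaging 10 counts or more, 26, 25 and 20 were at most this far apart. These numbers include the gene itself and any other member that was as close. Over the 6 members the median absolute log2 ratio was 0.09, beside 0.24 over all tested genes. Tested genes go down to a mean of 10 counts, where counting error is wider, and genes were not matched by level. The log2 ratio was 0.15 for Mir30c-1 and 0.32 for Mir30c-2, and 0 was within the counting interval of both.

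Mir30b was farther apart, though 349 of the 393 tested genes, itself included, were at most as far apart. Mir30b was lower in replicate 1 with a log2 ratio of -0.66, a 1.58-fold difference, and an adjusted p of 4.22e-10 by a two-sided exact binomial test. The test compares the reads of these libraries, not conditions, with Benjamini-Hochberg adjustment over all 393 genes. The rule for calling a gene asked for a difference of 1.5-fold or more with an adjusted p below 0.05. By this rule 1 of the 6 members was called, beside 9.92% of all tested genes (39 of 393, 23 higher and 16 lower in replicate 1). At 2-fold no member was called, beside 3.56% of all tested genes, and without a minimum fold 4 were, beside 51.7%. The adjusted exact p was 1.27e-06 for Mir30e, 0.00166 for Mir30a and 0.0265 for Mir30d where the libraries were at most 1.03-fold apart, and 0.401 and 0.193 for Mir30c-1 and Mir30c-2. The muscle list was likewise lower in replicate 1 (0.0177% against 0.0647%) and the epithelium list higher (0.966% against 0.647%), and their part in the difference of Mir30b was not tested.

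**Figure D4:**
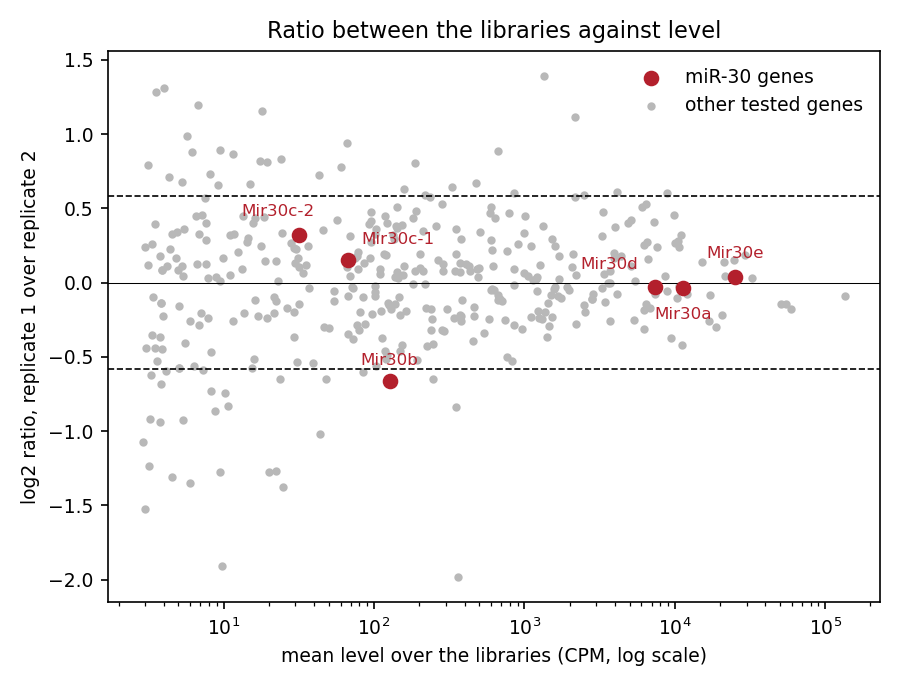
Log2 ratio of replicate 1 over replicate 2 against mean level (CPM, log scale) for the 393 tested genes, with the miR-30 genes in red and dashed lines at 1.5-fold. Mir30e, Mir30a and Mir30d lie within 0.04 of 0, and Mir30b lies at -0.66.

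The genes next to each member in level were mostly within the spread between the libraries. The range of Mir30e did not overlap with that of Mir10a above it (26347 CPM in replicate 1, 25880 in replicate 2) and overlapped with that of Mir126a below it (25987 and 23442 CPM). Mir10a lies beside Hoxb4, and Mir126a is the endothelial miRNA of Egfl7. Mir30a lay below Mir487b (11665 and 12278 CPM), without overlap, and overlapped with Mir140 (9555 and 12758 CPM). Mir30d overlapped with both of its neighbours, Mir423 (8286 and 7023 CPM) and Mir18 (7141 and 7524 CPM). The low members overlapped with theirs, Mir30b with Mir673 and Mir410, Mir30c-1 with Mir190a and Mirlet7c-2, and Mir30c-2 with Mir26a-2 and Mir8114.

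The gene outside the family with the most similar levels was sought by Euclidean distance in log2(CPM + 1) over the 2 libraries. It was Mir10a for Mir30e (distance 0.0755), Mir487b for Mir30a (0.113) and Mir18, of the miR-17-92 cluster, for Mir30d (0.0312). For the low members it was Mir450b for Mir30b (0.132), Mir194-2 for Mir30c-1 (0.0444) and Mir8112 for Mir30c-2 (0.106). Mir450b was, like Mir30b, lower in replicate 1, at 99.5 CPM in replicate 1 and 142 CPM in replicate 2. With 2 libraries, likeness in level is a description of these values alone.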

How the data were processed

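Whole-number read counts per miRNA gene were deposited by the authors for each library, made from mm10 alignments with GENCODE M4, as the deposited descriptions state. The settings of alignment, trimming and mismatches were not given in the sources used here. The tables have no header. The third column was read as the gene's own strand and the fourth as the opposite strand, an inference from the layout and totals. Tally rows were left out of totals. Gene IDs were matched without versions to GENCODE M21 (GRCm38, the assembly of mm10), with symbols for 1894 of 1973 genes. Sharing of 20-base runs was computed over the annotated M21 hairpins.

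CPM used 2764276 and 3946444 assigned counts. No contrast exists, so edgeR's quasi-likelihood test was not run, and an exact binomial test compared the libraries with 0.5 added to counts in ratios. A check on simulated data drew counts with counting error alone, so it does not show how the calls hold where libraries vary more. Members, lists and tests were chosen with earlier results of these data known. Named genes are the members, Mir384, the neighbours of each member in level and its nearest gene, with some genes of the lists and loci. The labels number the libraries as biological replicates with different pool sizes but give both the same donor label, so the spread between them (n = 2) may be partly technical. Alternatives used edgeR 4.0.16 and DESeq2 1.42.0 scaling in R 4.3.3, and the rest Python 3.11.15 with SciPy 1.17.1. The labels give no library protocol, and ligation preferences and amplification can change the levels of one miRNA relative to another.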

Additional observations from a re-analysis of the deposited data

How the results depend on the processing

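The order of the 6 members, of the loci and of the hairpins within each locus is set by counts and does not depend on the scaling. The totals used for CPM moved the family share and the level of each locus by more than the spread between the libraries. With both strands counted the family share was 4.31%, and the Mir30e, Mir30a and Mir30d loci had 24641, 11102 and 7311 CPM. Without the most abundant gene, Mir99a, these were 5.10%, 29168, 13143 and 8656 CPM, and without other genes that share a run of 20 bases 4.79%, 27429, 12357 and 8138 CPM. Ratios within the loci were the same with both strands counted. By 2-fold, 0 members were called (14 genes in all) and without a minimum fold 4 (203 genes in all), while Mir30b alone was called under the other minimum counts, edgeR and DESeq2 scaling, both strands and a pseudocount of 1. The median log2 ratio of all loci of 2 hairpins, 3.63, was 3.21 with gaps of at most 10 kb, 3.26 with at least 100 counts and 3.21 without shared runs. The first of these leaves out the locus of Mir30a, whose hairpins are farther apart, and the second leaves it out by its Mir30c-2 count. The third leaves out the loci of Mir30e and Mir30a, whose miR-30c hairpins share a run. No paired analysis was possible because the series has a single group. The miR-30c genes rest on 97 to 251 counts, which widens their counting intervals. Reads of the whole miR-30c-5p match both copies, and reads that matched several positions were tallied apart whatever the depth.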
